A study of Mus musculus with 48 samples.

Results

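The genes described are the 37 genes of the mouse mitochondrial chromosome: every gene that the deposited expression table places on chromosome MT, 37 of its 54532 genes. They are the 13 messenger RNAs for subunits of the respiratory chain and the ATP synthase, the 2 ribosomal RNAs and the 22 transfer RNAs. RNA was sequenced from brain tissue of male wild-type C57Bl6 mice given saline vehicle, angiotensin II at 0.7 mg per kg per day from an osmotic minipump for 2 weeks, vehicle with hydralazine at 50 mg per kg in the drinking water ("hydralazine alone"), or angiotensin II with hydralazine ("both drugs"). Angiotensin II is a peptide hormone that raises blood pressure, and hydralazine is a vasodilator that lowers it. Hemisphere and hippocampus were both sampled under each treatment, giving 8 groups of 6 libraries (48 in all). Both are whole tissue, so fewer cells of a type and less RNA per cell cannot be told apart. The labels do not say that the libraries of a group come from separate mice, so each p-value reflects only how these libraries scatter, which may be partly technical.

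Mitochondrial DNA is a small circle whose strands are both copied as long RNAs by a dedicated polymerase. Transfer RNAs lie between most of the other genes, and their excision frees the messenger and ribosomal RNAs. All other proteins that the organelle needs, including its polymerase, its ribosomal proteins and most respiratory chain subunits, are encoded in the nucleus. Neurons depend heavily on this respiratory chain for ATP.

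Of the 37 genes, 28 lie on the plus strand of the reference and 9 on the minus strand, which holds mt-Nd6 and 8 transfer RNAs. Gene models overlap in places: mt-Atp8 and mt-Atp6 share 43 bases and mt-Nd4l and mt-Nd4 share 7, both on 1 strand, while mt-Nd5 and mt-Nd6 share 14 on opposite strands. Whether the counting used strand is not given in the sources used here; a gene and RNA from its opposite strand cannot be told apart.

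Several members also have near-identical copies in the nuclear genome, in a block of chromosome 1 at positions 24611535 to 24616197 (GRCm38, minus strand). All 50-base windows of mt-Co2, 99.9% of those of mt-Co3, 99.5% of mt-Atp6, 98.8% of mt-Nd4l, 98.0% of mt-Nd3, 62.2% of mt-Nd4 and 51.1% of mt-Co1 also occur in nuclear transcripts. For mt-Rnr1, mt-Nd1, mt-Nd6, mt-Cytb, mt-Atp8 and the transfer RNAs none do, and for mt-Nd2, mt-Nd5 and mt-Rnr2 at most 8.2%. The first pair of sequences shows why mt-Co2 cannot be separated from its copy Gm28661, and the second where the copy Gm29216 parts from mt-Co1. Capitals mark the bases that differ, which are T1056A, C1057T, A1059G, A1060G, C1062A and A1066T (counted from 1 at the first base of mt-Co1, with the mitochondrial base first). All are written 5′ to 3′ on the gene's own strand, from GENCODE M21 transcripts (GRCm38), and the stretches are MT:7013-7072 (plus), 1:24615506-24615565 (minus), MT:6381-6440 (plus) and 1:24616138-24616197 (minus).
mt-Co2: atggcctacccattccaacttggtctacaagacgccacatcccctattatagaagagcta
Gm28661: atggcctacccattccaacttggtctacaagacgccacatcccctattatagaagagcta
mt-Co1: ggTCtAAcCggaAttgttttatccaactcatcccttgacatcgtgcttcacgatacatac
Gm29216: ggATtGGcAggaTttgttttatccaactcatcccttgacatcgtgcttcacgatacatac

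Over its 681 aligned bases Gm28661 did not differ from mt-Co2 at any base, and the deposited table gave the pair similar medians, with a median ratio of 1.001 in the hemisphere and 1.06 in the hippocampus. Single libraries ranged from 0.314 to 2.41 and from 0.714 to 1.67. mt-Atp6 and its copy Gm10925 had median ratios of 0.973 and 1.01, with ranges of 0.729 to 3.58 and 0.703 to 3.13. mt-Co1 stood 175 times above Gm29216 in the hemisphere and 64.3 times in the hippocampus. mt-Nd4 stood 175 and 495 times above its copy Gm28439, although no base differed over 876 aligned bases. An identical copy thus did not always have a similar level. How the counting divided reads between a gene and its copy is not given in the sources used here. The levels of mt-Co2, mt-Atp6, mt-Co3, mt-Nd3 and mt-Nd4l are therefore uncertain throughout. mt-Nd4 and mt-Co1 share part of their sequence with copies, and what this does to their levels was not tested.

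The transfer RNAs at the extremes of the range are also shown, since whole genes this short separate widely in level. mt-Tp (MT:15356-15422, minus) and mt-Tc (MT:5192-5257, minus) had the highest mean levels, and mt-Tf (MT:1-68, plus), which opens the chromosome just before mt-Rnr1, was listed at 0 in all 48 libraries.
mt-Tp: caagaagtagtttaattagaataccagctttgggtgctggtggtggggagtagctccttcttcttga
mt-Tc: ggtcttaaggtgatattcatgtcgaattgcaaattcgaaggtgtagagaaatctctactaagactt
mt-Tf: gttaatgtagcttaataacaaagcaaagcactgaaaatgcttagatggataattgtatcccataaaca

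Hemisphere libraries held 15.77 to 23.5 M reads in genes, and hippocampal ones 1.21 to 21 M (M stands for 1000000). Of the hippocampal libraries, 6 listed fewer than 16000 genes above 0: replicates 3 and 4 of vehicle, 3 of angiotensin II, 3 and 4 of hydralazine alone and 5 of both drugs. Replicate 3 of hydralazine alone was the library of 1.21 M reads. Replicate 6 of angiotensin II stood apart from its group in these genes in both regions, and the main values are also given without it. The summed level of 8 hippocampal marker genes was 324 to 447 FPKM in hippocampal vehicle libraries and 79.4 to 93.5 FPKM in hemisphere ones, so these markers differ in the direction of the tissue labels.

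Levels are given in FPKM, reads scaled to gene length and library size, so that longer genes can be compared per length. The transfer RNA genes are only 59 to 75 bases long, so few reads give a high FPKM. mt-Tp had a mean of 1927 FPKM from a median of 1778.5 reads, and mt-Nd5 1544 FPKM from 52492.5 reads. Levels of transfer RNAs are therefore hard to set beside those of longer genes. The mitochondrial genes held 8 of the 9 highest ranks among all genes by mean FPKM. mt-Nd1, a core subunit of complex I (NADH dehydrogenase), ranked 1 with 11543 FPKM. mt-Cytb, the cytochrome b of complex III, ranked 2 with 11287 FPKM, and mt-Co1, the catalytic subunit of cytochrome c oxidase (complex IV), ranked 3 with 10784 FPKM. The complex I subunits mt-Nd2 and mt-Nd4 followed with 7279 and 6510 FPKM.

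The ribosomal RNA of the small subunit, mt-Rnr1, had a mean of 5928 FPKM and rank 6, and that of the large subunit, mt-Rnr2, 4504 FPKM and rank 9. Between them ranked mt-Nd6, a complex I subunit and the only messenger RNA of the minus strand, with 4924 FPKM. mt-Nd5, also of complex I, had 1544 FPKM. The remaining messenger RNAs lay far lower: mt-Co2 at 376, mt-Nd3 at 221, mt-Atp6 (a membrane subunit of the ATP synthase) at 195, mt-Co3 at 141, mt-Nd4l at 28.2 and mt-Atp8 at 21.6 FPKM. Of these 6, all but mt-Atp8 are the genes whose sequence lies almost wholly in the nuclear copies, and mt-Atp8 shares bases with mt-Atp6; the part of either in these levels was not tested.

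Transfer RNAs took a median of 0.245% of mitochondrial reads in the hemisphere and 0.319% in the hippocampus. The highest were mt-Tp for proline (1927 FPKM), mt-Tc for cysteine (463 FPKM), mt-Tn for asparagine (309 FPKM) and mt-Te for glutamate (163 FPKM). All 4 are minus-strand genes, and the highest plus-strand one was mt-Tl1 with 90.03 FPKM. At the bottom, mt-Ts1 was above 0 in 6 libraries, mt-Td in 3 and mt-Tk in 3. A total of 33 genes reached 0.5 FPKM in at least 6 libraries of each region and could be tested there (13 messenger, 2 ribosomal and 18 transfer RNAs).

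**Figure D1:**
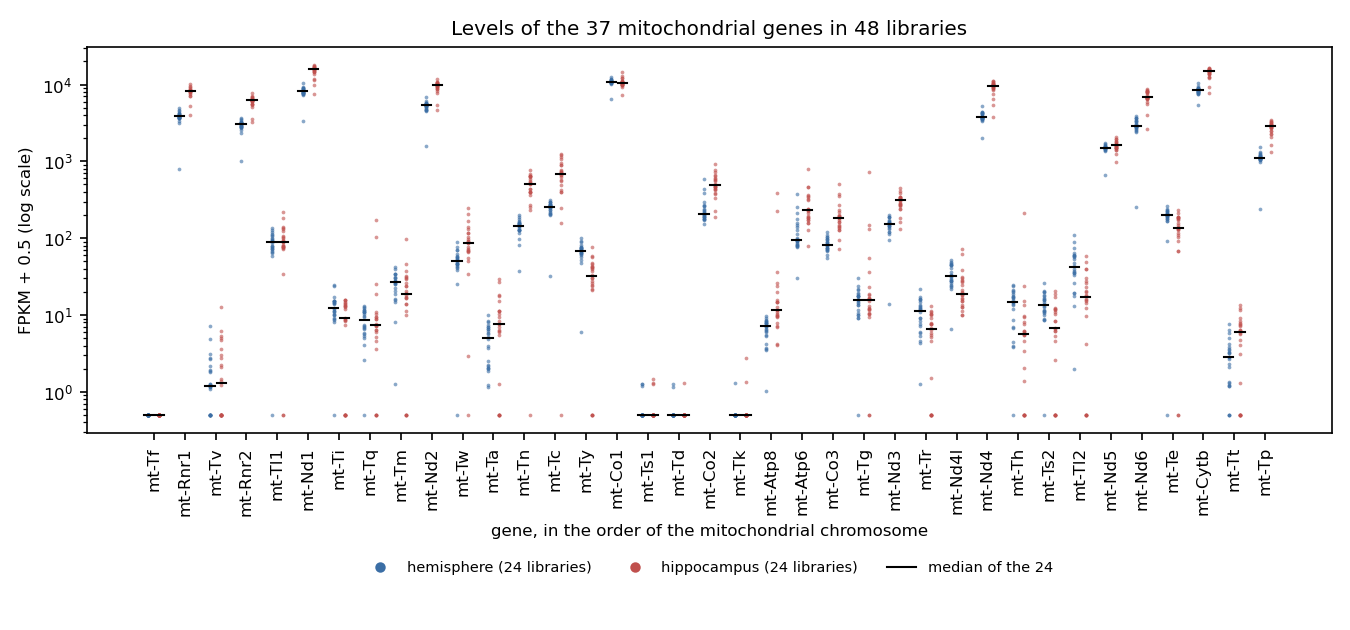
FPKM plus 0.5 (log scale) of the 37 mitochondrial genes in genome order; each point is 1 library, blue for the hemisphere and red for the hippocampus, and black bars are medians of 24 libraries. mt-Nd1, mt-Cytb and mt-Co1 were highest, transfer RNAs scattered widely, and mt-Tf was listed at 0 everywhere.

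Together the 37 genes took a median of 6.17% of the reads in genes in the hemisphere and 9.33% in the hippocampus. Within the hemisphere, the share in vehicle libraries ran from 5.89% through a median of 6.16% to 7.22%. It was 2.77%, 6.05% and 6.66% (lowest, median, highest) under angiotensin II, 5.70%, 6.07% and 6.53% under hydralazine alone, and 5.91%, 6.31% and 6.65% under both drugs. The 4 treatments overlapped, and the single low value of 2.77% belonged to replicate 6 of angiotensin II.

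In the hippocampus the share was 8.26%, 9.34% and 10.5% (lowest, median, highest) under vehicle and 5.74%, 9.20% and 10.01% under angiotensin II. With hydralazine alone it was 8.54%, 9.71% and 10.2%, and with both drugs 6.40%, 9.32% and 9.93%. Again the treatments overlapped, and the lowest value was again replicate 6 of angiotensin II. Of the 24 hippocampal libraries, 22 lay above the highest hemisphere library (7.22%), and the third lowest hippocampal library was at 8.17%.

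**Figure D2:**
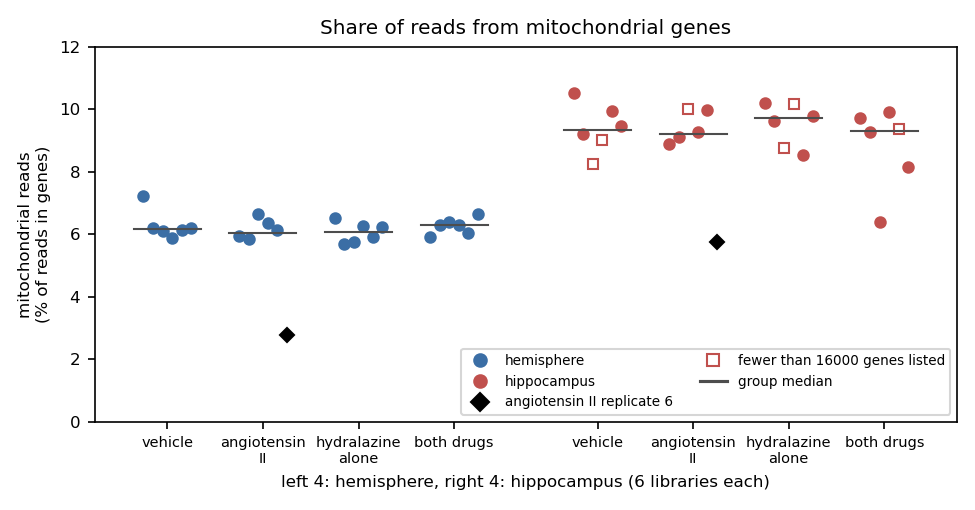
Share of reads in genes that came from the 37 mitochondrial genes (%), by group; points are libraries and 6 make a group, with the 4 hemisphere groups on the left. Treatments overlapped within each region, and replicate 6 of angiotensin II was the lowest library of each (2.77% and 5.74%).

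Angiotensin II was compared with vehicle to ask whether mitochondrial RNA differed in the brains of mice infused with the hormone. In the hemisphere mt-Nd1 was 7785, 8098 and 10351 FPKM (lowest, median, highest) under vehicle and 3357, 8203 and 8954 FPKM under angiotensin II. mt-Cytb was 7880, 8352 and 10488 FPKM under vehicle and 5487, 8234 and 8927 FPKM under angiotensin II. In both genes the medians lay close together and 1 library, replicate 6, pulled the lower end of the angiotensin II group down.

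Most of the other main members showed the same layout. mt-Co1 was 10718, 11171 and 12432 FPKM under vehicle and 6430, 11002 and 11845 FPKM under angiotensin II. mt-Nd6 was 2422, 2715 and 3718 FPKM against 251, 2886 and 3713 FPKM. The groups overlapped in each, and the median of mt-Nd6 was the higher under angiotensin II. mt-Rnr1 was 3125, 4002 and 5021 FPKM under vehicle and 802, 3728 and 4209 FPKM under angiotensin II. mt-Rnr2 was 2329, 3172 and 3664 FPKM against 1003, 2907 and 3244 FPKM. mt-Atp6 was 81.6, 94.0 and 156 FPKM against 30.1, 85.1 and 137 FPKM. In these 3 genes too the lowest angiotensin II value lay below every vehicle library. For mt-Atp6 replicates 1 and 2 of angiotensin II (78.4 and 79.8 FPKM) did so as well. The rest overlapped.

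By limma on log2(FPKM + 0.5), none of the 33 tested members was called at an adjusted p of 0.05 in the hemisphere, where 0.0717% of all genes tested were called (12 of 16747, with 0.0179% higher and 0.0537% lower), and no member had an unadjusted p under 0.05. The fitted differences were negative for 31 of 33, with a median of -0.41 against -0.00 over all genes. Smallest in p were mt-Tm, the methionine transfer RNA (log2 difference -1.10 ± 0.54 SE, adjusted p = 0.538), mt-Nd2 (-0.40 ± 0.20, adjusted p = 0.541) and mt-Tq, the glutamine transfer RNA (-1.05 ± 0.53, adjusted p = 0.541). mt-Rnr1 gave -0.40 ± 0.27 (adjusted p = 0.603), mt-Nd6 -0.45 ± 0.42 (adjusted p = 0.685) and mt-Nd1 -0.23 ± 0.16 (adjusted p = 0.614). The fit gave -0.15 ± 0.10 for mt-Co1 (adjusted p = 0.608), -0.14 ± 0.10 for mt-Cytb (0.617), -0.27 ± 0.19 for mt-Rnr2 (0.623) and -0.41 ± 0.36 for mt-Atp6 (0.676), all limma values.

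Without replicate 6 of angiotensin II most of these differences were close to 0. The median over the 33 members was then 0.02, with 18 positive and 15 negative, against 0.01 over all genes, and limma again called 0 members (0.0659% of all genes were called; 2 members had an unadjusted p under 0.05). mt-Nd1 moved to -0.01 ± 0.07, mt-Rnr1 to -0.02 ± 0.09, mt-Co1 to -0.02 ± 0.05, mt-Cytb to -0.04 ± 0.07 and mt-Rnr2 to -0.01 ± 0.09. mt-Nd6 turned to 0.16 ± 0.11, with an adjusted p of 0.79, and mt-Atp6 gave -0.14 ± 0.34. The genes named above for the smallest p gave -0.41 ± 0.32 (mt-Tm), -0.12 ± 0.08 (mt-Nd2) and -0.42 ± 0.36 (mt-Tq). The standard errors of mt-Nd6 and mt-Rnr1 fell from 0.42 and 0.27 to 0.11 and 0.09.

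limma called 0 genes of the nuclear lists for this system. Of 75 nuclear-encoded respiratory chain genes 64 had positive differences (median 0.12), and of 77 mitochondrial ribosomal protein genes 56 were positive (median 0.07). Of 11 biogenesis regulators 8 were negative (median -0.12), as were 11 of 17 genes for transcription and replication of mitochondrial DNA (median -0.02). Of 8 choroid plexus genes, by contrast, all 8 were negative (median -0.29, 0 called), and their part in the members' values was not tested. Without replicate 6, 59 respiratory chain genes were positive (median 0.05) and 52 of the ribosomal proteins (0.04), while 6 biogenesis regulators (-0.05), 9 transcription and replication genes (-0.01) and 8 choroid plexus genes (-0.29) were negative, with 0 called in each list. With all libraries Polrmt, the mitochondrial RNA polymerase, gave 0.06 ± 0.09 (limma adjusted p = 0.814) and Tfam, the factor that packages mitochondrial DNA, -0.02 ± 0.05 (0.881). Lrpprc, which stabilises mitochondrial messenger RNAs, gave -0.04 ± 0.05 (0.792) and Ppargc1a, a coactivator of mitochondrial biogenesis, -0.12 ± 0.12 (0.707).

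In the hippocampus mt-Nd1 was 11754, 15809 and 18203 FPKM (lowest, median, highest) under vehicle and 7543, 15386 and 16920 FPKM under angiotensin II. mt-Cytb was 12702, 14522 and 16016 FPKM against 7676, 14362 and 16325 FPKM, and mt-Rnr1 7059, 8359 and 9249 FPKM against 3985, 8386 and 10130 FPKM. Apart from the lowest library the groups overlapped, as they did in the hemisphere. mt-Co1 was 9956, 10831 and 12218 FPKM under vehicle and 9861, 10750 and 13016 FPKM under angiotensin II, with no low library.

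limma called 0 of 33 members here, as it called 0% of the 15267 genes tested (210 of these had an unadjusted p under 0.05, none of them a member). The median difference of the members was -0.06, with 15 positive and 18 negative, against 0.04 over all genes. The smallest p belonged to mt-Nd4l, a small complex I subunit, at 0.68 ± 0.36, to mt-Tv, the valine transfer RNA, at -1.08 ± 0.77, and to mt-Tm at 1.60 ± 1.18, each with an adjusted p of 1. mt-Nd6 gave -0.24 ± 0.21, mt-Nd1 -0.16 ± 0.17, mt-Cytb -0.13 ± 0.15, mt-Rnr1 -0.10 ± 0.16, mt-Rnr2 -0.03 ± 0.16, mt-Co1 0.01 ± 0.11 and mt-Atp6 0.25 ± 0.39. Without replicate 6 mt-Nd6 gave -0.01 ± 0.15, mt-Nd1 0.02 ± 0.13, mt-Cytb 0.03 ± 0.11, mt-Rnr1 0.09 ± 0.11, mt-Rnr2 0.14 ± 0.12, mt-Co1 0.01 ± 0.11 and mt-Atp6 0.56 ± 0.35. mt-Nd4l was 0.45 without replicate 1 of angiotensin II and 1.03 ± 0.34 without the 6 libraries with few genes. Without replicate 6 the member median was 0.02 (20 positive, 13 negative), and without both that library and the 6 libraries with few genes it was -0.07. 0 members were called in either case, with 0 and 2 at an unadjusted p under 0.05.

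The difference between the regions in the angiotensin II effect was also tested. limma called 0 of 34 members and 0% of the 17643 genes, with 2 members at an unadjusted p under 0.05. mt-Nd4l had the smallest p, with a difference of 1.27 ± 0.49 (hippocampus minus hemisphere, adjusted p = 1), followed by mt-Tm at 2.71 ± 1.34 and mt-Tv at -1.44 ± 1.02. Without replicate 6 of angiotensin II in either region these were 0.77 ± 0.44, 2.01 ± 1.35 and -2.11 ± 1.04.

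**Figure D3:**
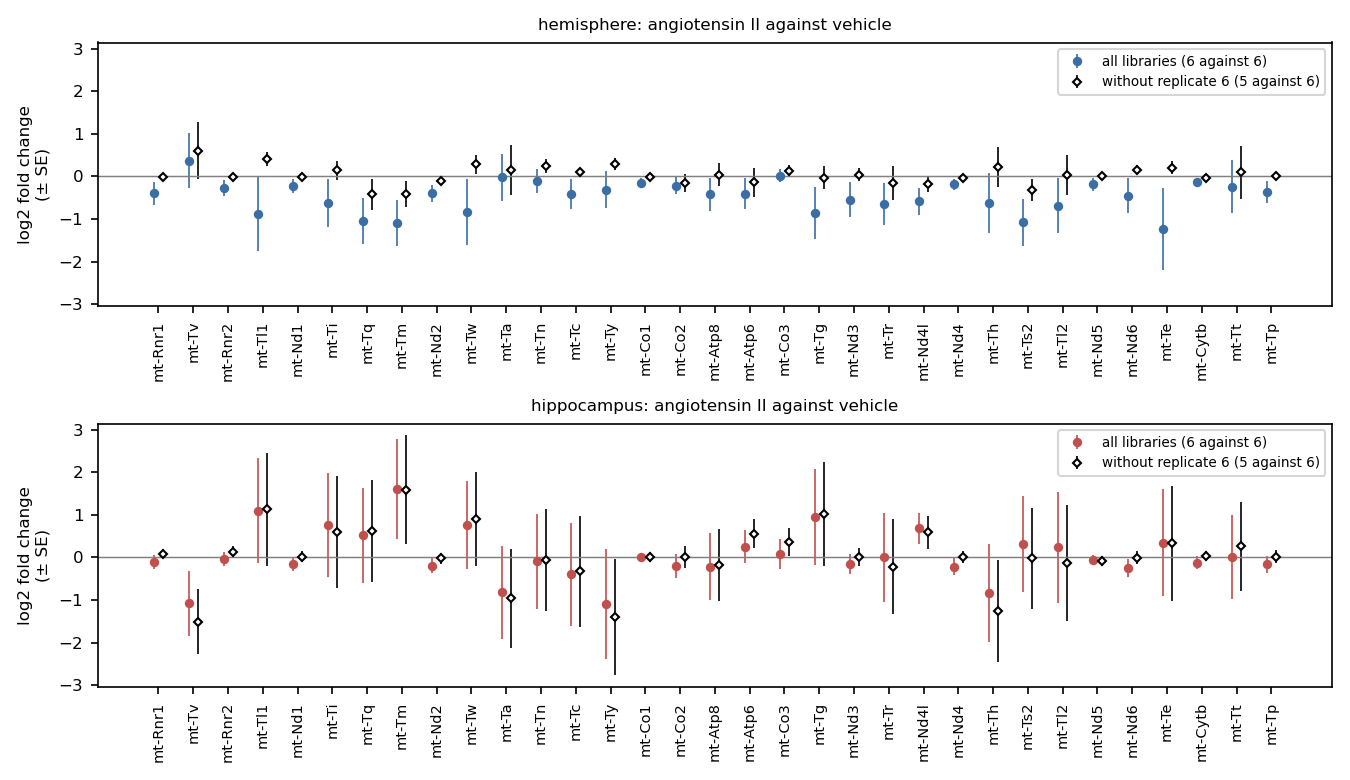
log2 fold change (± SE) of each tested mitochondrial gene under angiotensin II against vehicle, in the hemisphere (top) and hippocampus (bottom); filled points use all libraries and open diamonds leave out replicate 6. In the hemisphere 31 of 33 filled points lie below 0, and the diamonds lie on both sides of it (18 above, 15 below).

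Replicate 6 of angiotensin II was not low by the same proportion in every mitochondrial RNA. In the hemisphere it was the lowest of 24 libraries in all 15 messenger and ribosomal RNAs, at 8.6% of the median of replicates 1 to 5 for mt-Nd6, 9.4% for mt-Nd3 and 21.4% for mt-Rnr1. mt-Nd2 stood at 30.1%, mt-Rnr2 at 34.5%, mt-Nd1 at 39.3% and mt-Nd5 at 43.8%. mt-Nd4 kept 52.0%, mt-Co1 57.9%, mt-Cytb 64.8% and mt-Co2 74.7%. The ratio of mt-Co1 to mt-Nd6 was thus 25.7 in this library against a hemisphere median of 3.70, and that of mt-Rnr1 to mt-Rnr2 was 0.799 against 1.24 to 1.37 in the other 23 libraries. Its transfer RNA share was the lowest of the region, 0.0779% of mitochondrial reads.

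In the hippocampus the library numbered 6 was the lowest of 24 in 10 of the 15. It stood at 24.1% of the median of its group for mt-Atp6, 39.6% for mt-Nd6, 41.8% for mt-Nd4, 47.0% for mt-Rnr1, 48.4% for mt-Nd1 and 52.6% for mt-Cytb. mt-Co1 (103%) and mt-Nd5 (113%) were not low there, unlike in the hemisphere. In this library mt-Rnr1 (3985 FPKM), mt-Nd1 (7543), mt-Nd6 (2671) and mt-Cytb (7676 FPKM) lay within the hemisphere range without replicate 6 of angiotensin II. For mt-Nd1 that range was 7209 to 10351 FPKM. mt-Nd5 (1767 FPKM) and mt-Atp8 (9.71 FPKM) lay above theirs. Its 8 hippocampal marker genes summed to 440 FPKM, against 429 to 499 FPKM in replicates 1 to 5. The reason was not tested. The labels do not say whether the 2 libraries numbered 6 share an animal.

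Other RNAs moved with these libraries. In the hemisphere 5 blood genes summed to 213 FPKM in replicate 6 against 63.8 to 91.5 FPKM in replicates 1 to 5. The summed level of 6 astrocyte genes was 913 against 604 to 671 FPKM. Their mean log2 level was lower, however, at 5.68 against 5.85 to 5.98, so these 6 genes were not all raised. The summed level of 6 nuclear-retained RNAs was 398 against 517 to 565 FPKM. In the hippocampus the nuclear-retained RNAs were instead higher, 363 against 173 to 189 FPKM. A list of 16 genes that track mitochondrial mass was higher in the hemisphere library (1354 against 1158 to 1254 FPKM) and lower in the hippocampal one (1160 against 1413 to 1454 FPKM). Nuclear genes over 4000 bases long differed from the mean of replicates 1 to 5 by a median log2 of -0.21 in the hemisphere and 0.27 in the hippocampus. Those of up to 1000 bases differed by -0.06 and -0.09, and those over 1000 and up to 2000 bases by 0.19 and -0.30. For genes over 2000 and up to 4000 bases the values were 0.11 and 0.02. The part of any of these in the mitochondrial values was not tested.

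**Figure D4:**
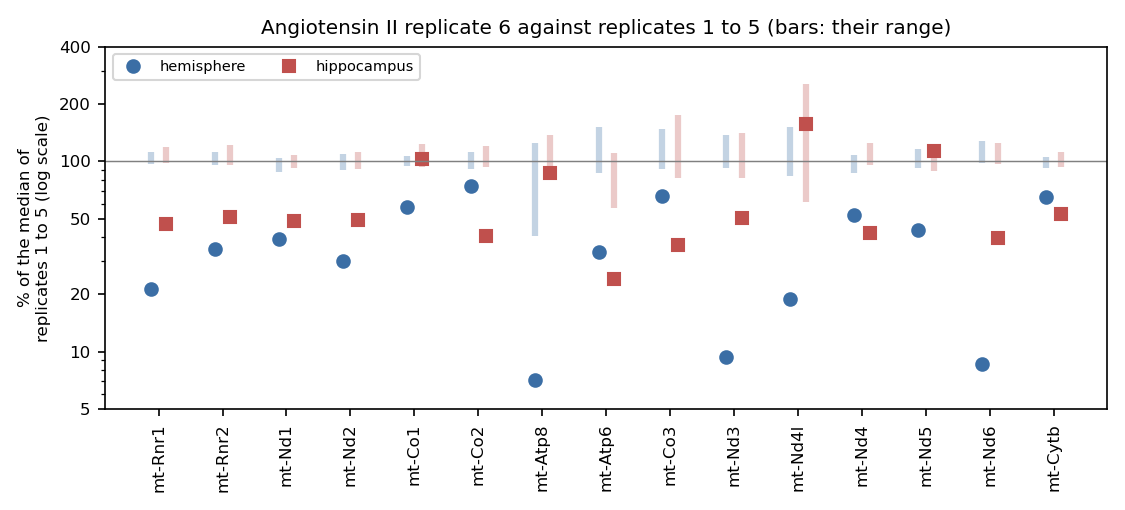
Level of each mitochondrial messenger and ribosomal RNA in replicate 6 of angiotensin II as a percentage of the median of replicates 1 to 5 (log scale); circles are the hemisphere, squares the hippocampus, and pale bars the range of replicates 1 to 5. mt-Nd6 is at 8.6% and 39.6%, and mt-Co1 at 57.9% and 103%.

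Outside replicate 6, some pairs of abundant members varied little in proportion within the hemisphere; the pairs given were chosen after their values were seen. Over the other 23 hemisphere libraries the ratio of mt-Nd1 to mt-Cytb stayed between 0.934 and 1.01, with an SD of 0.029 on the log2 scale. The log2 SD was 0.041 for mt-Rnr1 to mt-Rnr2, which lie side by side with only mt-Tv between them, 0.056 for mt-Nd1 to mt-Nd4 and 0.064 for mt-Co1 to mt-Nd5. Ratios with mt-Co2 were far looser (0.441 against mt-Cytb). All 50-base windows of mt-Co2 occur in nuclear transcripts, as do 62.2% of those of mt-Nd4. The part of the copies in these ratios was not tested. mt-Nd6, the minus-strand messenger RNA, had a log2 SD of 0.185 against mt-Nd5 and 0.179 against mt-Co1. In the 23 hippocampal libraries other than replicate 6 the log2 SD was 0.065 for mt-Rnr1 to mt-Rnr2 and 0.076 for mt-Nd1 to mt-Cytb. There mt-Nd1 to mt-Co1 ran from 1.08 to 1.74 (log2 SD 0.191) and mt-Co1 to mt-Nd6 from 1.17 to 2.66 (0.294).

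Hydralazine was compared in the same way. With it alone, hemisphere mt-Nd1 was 7209, 7859 and 9161 FPKM (lowest, median, highest), mt-Cytb 7500, 8241 and 9458 FPKM, and mt-Rnr1 3325, 3712 and 4682 FPKM. With both drugs they were 7727, 8618 and 8898 FPKM, 7789, 8936 and 9018 FPKM, and 3770, 3967 and 4573 FPKM. All 3 genes overlapped with vehicle and with angiotensin II. In the hippocampus mt-Nd1 was 11491, 16020 and 17202 FPKM under hydralazine alone and 9752, 15976 and 16611 FPKM under both drugs, again within the spread of vehicle apart from the lowest libraries.

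In none of the 5 hydralazine comparisons of either region did limma call a member, and in each 0% of all genes were called. These were both drugs against angiotensin II, both drugs against vehicle, hydralazine alone against vehicle, the angiotensin II effect under hydralazine, and the interaction of the drugs. In the hemisphere 1, 1, 0, 1 and 1 members had an unadjusted p under 0.05, and in the hippocampus 2, 0, 0, 3 and 2. Between both drugs and angiotensin II alone, the member median in the hemisphere was 0.45 with replicate 6 and 0.02 without it.

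The hemisphere gene with the smallest p was mt-Co2, a subunit of complex IV that binds cytochrome c. Its 6 libraries under both drugs read 386, 265, 582, 292, 241 and 262 FPKM, and those under angiotensin II 221, 203, 207, 231, 188 and 154 FPKM. Every library with both drugs lay above every library with angiotensin II, but vehicle (178 to 436 FPKM) overlapped with both. The log2 difference between both drugs and angiotensin II was 0.69 ± 0.20 (unadjusted p = 0.0021, limma adjusted p = 0.851), and without replicate 6 mt-Co2 gave 0.61 ± 0.21 (an interaction of 0.92 ± 0.29). The effect of angiotensin II under hydralazine on mt-Co2 was 0.77 ± 0.20 (unadjusted p = 0.000789, adjusted p = 1). Its interaction term was 0.99 ± 0.28 (adjusted p = 1), and its difference from vehicle 0.46 ± 0.20 (adjusted p = 0.91), or 0.29 without replicate 3 of both drugs. Gm28661, its nuclear copy, was 250, 270 and 313 FPKM (lowest, median, highest) under both drugs and 188, 204 and 600 FPKM under angiotensin II, so the copy's groups overlapped.

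Next to mt-Co2, mt-Nd4 (0.23 ± 0.13) and mt-Nd2 (0.36 ± 0.20) had the smallest p when both drugs were set against angiotensin II. Without replicate 6 of angiotensin II mt-Nd4 gave 0.08 ± 0.09 and mt-Nd2 0.07 ± 0.08. Against vehicle, mt-Nd4l (-0.65 ± 0.32) and mt-Tv (0.84 ± 0.65) followed it for both drugs. For hydralazine alone they were mt-Atp6 (0.56 ± 0.36), mt-Co2 (-0.30 ± 0.20) and the threonine transfer RNA mt-Tt (0.83 ± 0.62), all with an adjusted p of 1 by limma. No member was called, so these orderings are descriptions.

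In the hippocampus mt-Nd4l had the smallest p for both drugs against angiotensin II, for the angiotensin II effect under hydralazine and for the interaction. It was 9.56, 17.5 and 28.4 FPKM (lowest, median, highest) under vehicle, 14.9, 27.0 and 62.0 under angiotensin II, 12.2, 26.9 and 70.8 under hydralazine alone, and 9.59, 13.5 and 19.4 under both drugs. The 4 ranges overlapped. Both drugs differed from angiotensin II by -0.96 ± 0.36 (unadjusted p = 0.0138, limma adjusted p = 1), and the interaction was -1.58 ± 0.51 (adjusted p = 0.931). Under hydralazine the effect of angiotensin II on mt-Nd4l was -0.90 ± 0.36 (adjusted p = 0.649). mt-Tv came next in all 3 comparisons, at 1.88 ± 0.77, 1.81 ± 0.77 and 2.89 ± 1.08 for the first, the effect under hydralazine and the interaction, and its highest group median was 3.25 FPKM. Without replicate 6 of angiotensin II the difference between both drugs and angiotensin II was -0.87 ± 0.38 for mt-Nd4l and 2.31 ± 0.76 for mt-Tv, and the interaction -1.49 ± 0.53 and 3.32 ± 1.06. mt-Nd4l is nearly all shared with its nuclear copy Gm10222 and overlaps mt-Nd4.

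mt-Atp8, the small ATP synthase subunit, was 3.65, 17.7 and 386 FPKM under both drugs in the hippocampus against 6.52, 12.3 and 35.8 FPKM under vehicle. Replicates 4 and 6 of both drugs were the highest, at 386 and 225 FPKM, and the fit gave 1.17 ± 0.79 with no call (0.45 without replicate 4). Against vehicle, mt-Nd5 under both drugs differed by -0.25 ± 0.12 and mt-Th, the histidine transfer RNA, by -2.27 ± 1.16, neither called by limma. Leaving out replicate 3 of both drugs gave -0.15 for mt-Nd5, and leaving out replicate 3 of vehicle gave -1.37 for mt-Th. With hydralazine alone the smallest p was that of mt-Ty, the tyrosine transfer RNA, at -2.42 ± 1.29, followed by the glycine transfer RNA mt-Tg at 1.94 ± 1.13 (adjusted p = 0.677 for both). Without the 6 libraries with few genes mt-Ty gave -0.42 ± 0.27 and mt-Tg 0.23 ± 0.33, so both values rest on those libraries. For both drugs against angiotensin II the preset members lay between -0.14 (mt-Co1) and 0.27 (mt-Nd6) in the hippocampus, and in the hemisphere, with replicate 6, between 0.08 (mt-Co1) and 0.68 (mt-Nd6). Without replicate 6 of angiotensin II they ran from -0.14 (mt-Co1) to 0.04 (mt-Nd6) in the hippocampus and from -0.05 (mt-Co1) to 0.29 (mt-Atp6) in the hemisphere, where mt-Nd6 was at 0.07.

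The regions were compared within each treatment to ask how the tissues differ. Nearly all hippocampal libraries lay above all hemisphere libraries in mt-Rnr1, mt-Nd4, mt-Nd6, mt-Tp and mt-Tn (23 of 24 each) and in mt-Rnr2, mt-Nd1, mt-Nd2, mt-Cytb and mt-Co3 (22 of 24 each). mt-Co1 and mt-Nd4l did so in 2 libraries, mt-Atp6 in 3, mt-Nd5 in 6 and mt-Co2 in 7. Of the genes with 22 or 23 such libraries, hippocampal replicate 6 of angiotensin II was an exception in all but mt-Tn. The share of all genes that set the regions apart in this way was not computed. By limma 37% to 50.7% of all genes were called between the regions, depending on the treatment. Nothing particular to the members is therefore read from these counts. The ratio of region medians, hippocampus to hemisphere, was 2.58 for mt-Nd4, 2.55 for mt-Tp, 2.39 for mt-Nd6, 2.16 for mt-Rnr1, 2.04 for mt-Rnr2, 1.95 for mt-Nd1, 1.82 for mt-Nd2 and 1.76 for mt-Cytb. It was 1.07 for mt-Nd5, 0.97 for mt-Co1 and 0.574 for mt-Nd4l.

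In vehicle libraries mt-Nd4 was 3579, 3719 and 5248 FPKM (lowest, median, highest) in the hemisphere and 7579, 9754 and 10580 FPKM in the hippocampus, with no overlap. mt-Nd6 was 2422, 2715 and 3718 FPKM against 5841, 7055 and 8194 FPKM, also apart. mt-Co1 was 10718, 11171 and 12432 FPKM against 9956, 10831 and 12218 FPKM, which overlapped almost fully. mt-Nd5 overlapped too, with 1498, 1523 and 1561 FPKM against 1471, 1646 and 2065 FPKM.

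limma called 12 of 34 members in vehicle libraries, 11 higher and 1 lower in the hippocampus, where 42.2% of all 17643 genes were called (12.7% higher, 29.5% lower). The member median was a log2 difference of 0.73, against -0.21 over all genes. Called higher were the complex I messenger RNAs mt-Nd4 (1.27 ± 0.17, adjusted p = 7.17e-08), mt-Nd1 (0.89 ± 0.17, adjusted p = 2.68e-05), mt-Nd2, mt-Nd3 and mt-Nd6 (1.33 ± 0.34, adjusted p = 0.00118). mt-Cytb of complex III rose by 0.75 ± 0.13 (adjusted p = 3.75e-06), as did mt-Co2 and mt-Co3 of complex IV by 1.03 and 1.09. Both ribosomal RNAs were higher, mt-Rnr2 by 0.99 ± 0.18 (adjusted p = 1.66e-05, but -0.02 under quantile normalization) and mt-Rnr1 by 1.06 ± 0.23 (adjusted p = 0.000153), and of 19 transfer RNAs tested only mt-Tp, by 1.26 ± 0.24 (adjusted p = 2.22e-05). mt-Nd4l was lower, at -1.22 ± 0.35 (adjusted p = 0.00414).

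These directions hold on the scale of the deposited FPKM. Under quantile normalization, which gives every library the same values by rank, mt-Nd1 (0.45, limma adjusted p = 9.84e-07) and mt-Nd4 (0.37, adjusted p = 0.00853) stayed higher. There mt-Cytb (0.05), mt-Rnr1 (0.05), mt-Nd6 (0.27) and mt-Tp (0.25) were not called, mt-Rnr2 turned to -0.02, and mt-Co1 was called lower (-0.64, adjusted p = 3.77e-06). The same scaling moved the median of all genes from -0.21 to 0.04 and left 5 members called, 2 higher and 3 lower. Of all 17643 genes it called 7994. Members hold most of the highest ranks by mean FPKM, and this scaling can remove a difference shared by genes of those ranks. For such genes it cannot show whether they are higher together. How much of the change in calls comes from this was not tested. mt-Co2, mt-Nd3 and mt-Co3, at ranks 72, 165 and 323, were not called higher under it either.

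mt-Co1 did not pass on the scale used throughout (-0.07, 95% interval -0.27 to 0.13, adjusted p = 0.641), nor did mt-Nd5 (0.14, interval -0.13 to 0.40, adjusted p = 0.453). mt-Atp6 gave 0.88 ± 0.38 (adjusted p = 0.0587), and mt-Tn 1.87 ± 0.84 (0.0692). The ratio of mt-Nd1 to mt-Cytb had a median of 0.974 in the hemisphere and 1.06 in the hippocampus, and that of mt-Co1 to mt-Cytb 1.32 and 0.748. mt-Co1 made up a median of 29.2% of mitochondrial reads in the hemisphere and 17.2% in the hippocampus, mt-Nd4 9.10% and 13.6%, and the ribosomal RNAs together 14.8% and 17.9%.

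**Figure D5:**
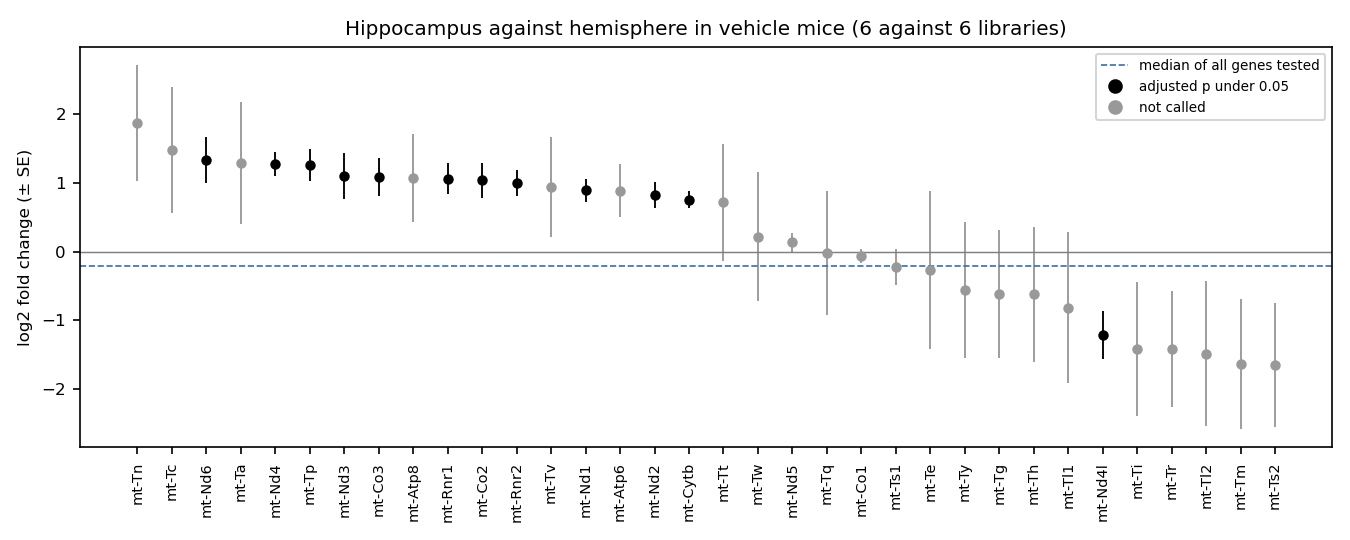
log2 fold change (± SE) between hippocampus and hemisphere of the 34 tested mitochondrial genes in vehicle libraries (6 against 6), ordered by size; black points were called by limma at an adjusted p of 0.05, and the dashed line is the median of all genes (-0.21). The 11 genes called higher are 8 messenger RNAs, both ribosomal RNAs and mt-Tp, and mt-Nd4l is the 1 called lower. Under quantile normalization, which can remove a difference shared by the highest-ranked genes, mt-Rnr2 lies at -0.02.

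The other treatments gave similar counts. Under angiotensin II 12 members were called, all higher (37% of all genes called, 12.4% higher and 24.6% lower). Under hydralazine alone 13 were called, 11 higher and 2 lower (50.7% of all genes, 12.4% and 38.4%). Under both drugs 16 were called, 13 higher and 3 lower (42.4% of all genes, 13.6% and 28.8%). Quantile normalization gave 5 higher and 2 lower under angiotensin II, 5 and 4 under hydralazine alone, and 3 and 6 under both drugs. Of all 17643 genes it called 7385, 8507 and 7975 in these treatments. The 3 lower calls under both drugs were mt-Nd4l, mt-Th and mt-Tl2, and 0 lower calls were left with a pseudocount of 0.1 (13 higher) or with no filter on low values (12 higher). The same 11 members were called higher in all 4 treatments, although under quantile normalization mt-Rnr2 was below 0 in 3 of these and mt-Tp below 0 and mt-Cytb at 0.00 under both drugs: mt-Co2, mt-Co3, mt-Cytb, mt-Nd1, mt-Nd2, mt-Nd3, mt-Nd4, mt-Nd6, mt-Rnr1, mt-Rnr2 and mt-Tp. None was called in both directions, 17 were called in no treatment, mt-Co1 and mt-Nd5 among them, and 4 (mt-Nd4l, mt-Th, mt-Tl2 and mt-Ty) were called lower in at least 1.

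For the genes with the smallest p the sizes by treatment were as follows. mt-Nd4 was higher by 1.24 under angiotensin II, 1.29 under hydralazine alone and 1.15 under both drugs, and mt-Cytb by 0.77, 0.85 and 0.66. mt-Tp was higher by 1.46, 1.32 and 1.25, and mt-Nd1 by 0.96, 0.92 and 0.78. The 3 transfer RNAs called lower had low levels and large errors: mt-Ty fell by 3.23 and the leucine transfer RNA mt-Tl2 by 3.22 under hydralazine alone, and mt-Th fell by 2.52 and mt-Tl2 by 2.56 under both drugs. Each of the 3 was listed at 0 in at least 1 of the hippocampal libraries concerned, which include those with few genes. Without the 6 libraries with few genes mt-Ty was at -1.24 ± 0.41 and mt-Tl2 at -1.56 ± 0.62 under hydralazine alone, and mt-Th at -2.13 ± 0.72 and mt-Tl2 at -1.81 ± 0.58 under both drugs.

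Without replicate 6 of angiotensin II, 13 members were called in vehicle libraries (12 higher, 1 lower; 43.3% of all genes), mt-Atp6 joining with an adjusted p of 0.0304, and the error of mt-Rnr1 shrank to 0.10 around the same difference. Without both that library and the 6 with few genes, 21 were called (18 higher, 3 lower; 68.9% of all genes).

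The nuclear-encoded partners were described in the same comparison from lists of genes chosen by function, to be read against the 12.7% of all genes called higher and 29.5% called lower. Of 75 respiratory chain genes 63 were higher and 2 lower in the hippocampus (median 1.04), such as Cox8a at 1.42 ± 0.15 (limma adjusted p = 2.36e-10) and Cox6a1 at 1.56 ± 0.17, both complex IV subunits, and Ndufa5 of complex I at 1.52 ± 0.17. Of 77 mitochondrial ribosomal protein genes 45 were higher and 1 lower (median 0.62), with Mrpl57 at 1.41 ± 0.15 and Mrps33 at 1.34 ± 0.15. The 17 genes for transcription and replication of mitochondrial DNA had none higher and 2 lower: Polrmt, the RNA polymerase, at -1.07 ± 0.16 (adjusted p = 4.81e-07) and Polg, the DNA polymerase, at -0.94 ± 0.20. Tfam was at -0.03 ± 0.34 (adjusted p = 0.949).

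Genes for processing and decay of mitochondrial RNA were split, with 4 of 28 higher and 4 lower. Higher were Hsd17b10, a subunit of the enzyme that cuts the 5′ end of transfer RNAs, at 0.99 ± 0.13, and Slirp, the binding partner of Lrpprc, at 1.12 ± 0.25. Lower were Gtpbp3 at -1.23 ± 0.22 and Trmu at -1.33 ± 0.36, which both modify transfer RNAs, and Lrpprc itself was at 0.00 ± 0.17 (limma adjusted p = 0.993). Of 11 regulators of mitochondrial biogenesis none was higher and 3 were lower, led by Esrrg (-1.72 ± 0.24) and Ppargc1b (-1.18 ± 0.21), and Ppargc1a was at -0.27 ± 0.15 (adjusted p = 0.153). Of 16 genes that track mitochondrial mass 6 were higher and 3 lower (median 0.21). The counts of lower genes in the lists for transcription and replication, RNA processing and biogenesis were near or below the share of all genes, and nothing is read from them.

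Levels of some cell type markers and RNA features also differed between the regions. Of 8 choroid plexus genes 7 were lower in the hippocampus, and their summed level was 31.1 to 145 FPKM there against 536 to 915 FPKM in the hemisphere. All 5 nuclear-retained RNAs tested were lower (median -1.28). Of 6 neuron genes 2 were higher and 0 lower, of 6 astrocyte genes 2 higher and 1 lower, and of 6 endothelial genes 1 higher and 4 lower. Of all genes 12.7% were called higher and 29.5% lower, and little can be read from lists of 6. In vehicle libraries the summed blood genes were 90.3 to 322 FPKM in the hippocampus and 56.0 to 153 FPKM in the hemisphere. The summed oligodendrocyte and microglia genes overlapped between the regions too. In vehicle libraries the median log2 difference of nuclear genes was -0.16 for genes of up to 1000 bases and 0.05 for those over 1000 and up to 2000 bases. It was -0.17 for genes over 2000 and up to 4000 bases and -0.30 for genes over 4000 bases. Without the libraries with few genes these 4 values were 0.02, 0.20, -0.09 and -0.26. The part of these in the mitochondrial difference was not tested.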

How the data were processed

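The authors deposited FPKM per gene for 48 libraries, with the length of each gene in bases. The submitters' processing notes name the builds GRCm38 and mm10 and the tool DESeq 1.10.1; aligner, counter and strand setting were not given in the sources used. FPKM times length gave whole reads for 99.9984% of values (tolerance 0.1 read), used only for depth and shares of reads. Genes reaching 0.5 FPKM in 6 or more libraries were tested on log2(FPKM + 0.5), a scale that understates changes of low genes, with limma 3.58.1 in R 4.3.3 (trend, robust prior), per region (24 libraries) or over all 48 between regions. Calls are two-sided, at a Benjamini-Hochberg adjusted p under 0.05 over all genes tested. Python 3.11.15, pandas 2.3.3 and matplotlib 3.10.9 made the tables and plots. Named genes are, per comparison, the called members (up to 6), or the 3 with the smallest p where fewer than 3 were called, a preset group of 7 members, the 4 highest transfer RNAs, and up to 4 called members of each other list with Polrmt, Tfam, Lrpprc and Ppargc1a; mt-Atp8 and the copies were added after their values were seen. The members and lists were chosen with earlier results of these data known. Sequences come from GENCODE M21, whose coordinates for the 37 genes equal the deposited ones. Alternatives were other pseudocounts, filters, scalings, library weights, a replicate block and libraries left out. The fit was tested on simulated data.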

Additional observations from a re-analysis of the deposited data

Results flagged for a closer look

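Over the share and 15 genes in 8 groups, 128 sets of 6 values were examined, and 34 had a highest or lowest library whose gap to its nearest neighbour exceeded Dixon's critical share of the group's range for 6 values; chance marks about 1 in 20 such groups. Of these, 10 belonged to replicate 6 of angiotensin II in the hemisphere, 9 to the library of that number in the hippocampus and 15 to others.

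Hemisphere replicate 6 of angiotensin II was low in its share of mitochondrial reads (2.77% against 5.84% to 6.66% in replicates 1 to 5) and in 9 genes. These were mt-Rnr1 (802 FPKM), mt-Rnr2 (1003), mt-Nd1 (3357), mt-Nd2 (1566), mt-Co1 (6430), mt-Nd3 (13.4), mt-Nd5 (656), mt-Nd6 (251) and mt-Cytb (5487 FPKM).

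Hippocampal replicate 6 of angiotensin II was low in its share (5.74% against 8.91% to 10.01%) and in mt-Rnr1 (3985 FPKM), mt-Rnr2 (3275), mt-Nd1 (7543), mt-Nd2 (4724), mt-Co2 (187), mt-Nd4 (3748), mt-Nd6 (2671) and mt-Cytb (7676 FPKM).

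Hemisphere replicate 1 of vehicle was high, with a share of 7.22% against 5.89% to 6.21%. It was also high in mt-Nd1 (10351 FPKM), mt-Nd2 (6970), mt-Nd4 (5248), mt-Nd6 (3718) and mt-Cytb (10488 FPKM).

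The other values were single genes. mt-Co1 was high in hippocampal replicates 3 of angiotensin II (13016 FPKM) and 4 of hydralazine alone (14605 FPKM), both libraries with few genes, and mt-Nd4l was high in the latter (70.8 FPKM). mt-Nd6 was low in hippocampal replicate 3 of hydralazine alone (3984 FPKM), the library of 1.21 M reads, and mt-Nd4 was low in hippocampal replicate 3 of both drugs (5477 FPKM). mt-Co2 was high in hemisphere replicate 4 of vehicle (436 FPKM), mt-Atp6 in hippocampal replicate 2 of hydralazine alone (789 FPKM), and mt-Co3 in hippocampal replicates 1 of hydralazine alone (505.0 FPKM) and 4 of both drugs (374 FPKM).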

How the results depend on the processing

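Within regions, and for the region difference of the angiotensin II effect, the counts of called members were 0 under every alternative run, a replicate block included. For hippocampus against hemisphere, quantile normalization left 5 members called in vehicle libraries, 7 under angiotensin II and 9 under both drugs. In these it called 7994, 7385 and 7975 of 17643 genes, and it can remove a difference shared by the highest-ranked genes. It turned mt-Rnr2 to -0.023 in vehicle libraries, -0.13 under hydralazine alone and -0.060 under both drugs, mt-Co1 to -0.60 under angiotensin II and -0.58 under hydralazine alone, and under both drugs mt-Cytb to 0.00 and mt-Tp to -0.016. Library weights called 21 members in vehicle libraries and 25 under both drugs, beside 12483 and 12827 of all 17643 genes. Leaving out the 6 libraries with few genes and angiotensin II replicate 6, chosen after seeing the data, called 21 and 25 too. Of all 17454 genes tested it called 12029 and 12505. The cause was not tested. Leaving out each library in turn gave 12 to 15 members in vehicle libraries, 12 to 14 under angiotensin II, 12 to 16 under hydralazine alone and 12 to 19 under both drugs. With no library left out, 42.2%, 37%, 50.7% and 42.4% of all genes were called. Over all alternatives 7298 values of single genes were computed: 7 reversed, 17 calls were lost and 28 gained, and 205 changed sign without being called in either fit.

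Correlations between the deviations of same-numbered libraries ran from -0.21 to 0.47 in the hemisphere, -0.20 to 0.26 in the hippocampus and -0.21 to 0.04 between regions. They were over 0.1 in 3 of 36, 10 of 36 and 0 of 24 pairs, so the numbers were not taken to pair the libraries. A library correlated best with its own number in 13 of 72, 21 of 72 and 7 of 48 cases, each a library and another group. By chance 1 in 6 would. The hippocampus lay above that and had the most pairs over 0.1, so same-numbered libraries may be linked there. With the replicate block, 13, 12, 14 and 13 members were called between regions (vehicle, angiotensin II, hydralazine alone, both drugs), of which 1, 0, 2 and 0 were lower. Of all 17643 genes the block called 7051, 6109, 8628 and 7123. Transfer RNAs are short and often listed at 0, and whether depth limits their values was not tested.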
